A study of Mus musculus with 38 samples.

Results

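The eIF4G family of the mouse, Eif4g1, Eif4g2 and Eif4g3, was followed by ribosome profiling through primary cortical neurons in which Eif4g2 was knocked down. The members were chosen by name and make up 3 of the 22443 genes that the deposited count files hold. All 3 had counts in every library. The neurons were taken from mouse embryos and carried a lentivirus with doxycycline-inducible TurboID, a ligase that puts biotin on proteins close to it. The bait TurboID-PSD95 goes to dendrites, since its mRNA carries parts of that of PSD95, a scaffold of excitatory synapses. Pan-TurboID is not directed to any part of the neuron. After 2 min of cycloheximide, which stops elongating ribosomes, and 30 min of biotin, according to the labels, each culture gave 2 libraries of ribosome footprints. The input held footprints of all monosomes, and the pulldown held those of monosomes caught on streptavidin. The KCl experiment had 24 libraries, 3 per group, from neurons at rest or depolarized with 55 mM KCl for 1 h, with either bait. The DHPG experiment had 6 TurboID-PSD95 libraries, 3 per group, from neurons that received 100 µM DHPG, which activates metabotropic glutamate receptors of group I, during 10 min. The knockdown experiment had 8 TurboID-PSD95 libraries, 2 per group, from resting and KCl-depolarized neurons that had been given an siRNA to eIF4G2 (20 nM) 72 h earlier. In all stimulated neurons activity was first blocked for 2 h with tetrodotoxin and DL-AP5. No non-targeting siRNA library was analysed here, so the untreated groups of the KCl experiment served as the comparison, and siRNA, transfection and experiment cannot be told apart. The labels do not say that replicates are separate cultures of separate embryos, so a p-value measures the spread between these libraries. The descriptions of the DHPG inputs and of the knockdown libraries name the cytosol, while their virus field names PSD95-TurboID, which was used.

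eIF4G proteins are the scaffolds of cap-dependent initiation. eIF4G1 and its close relative eIF4G3 hold together the cap-binding protein eIF4E, the helicase eIF4A, poly(A)-binding protein and eIF3, and so bring the small ribosomal subunit to the capped end of an mRNA. eIF4G2, also called DAP5 or p97, resembles the later portion of eIF4G1. It binds eIF4A and eIF3 but lacks the part that holds eIF4E, and it is known for initiation on mRNAs with upstream open reading frames or internal entry sites. Its own main reading frame is known to begin at a GUG codon.

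The sequences around the start codons show this difference between the members. They are given 5′ to 3′ from mm10 with the annotated start codon, or the upstream ATG, in capitals.
Eif4g1, chr16:20673890-20673916, plus strand: gcaccaaatgaaATGaacaaagctccc
Eif4g2, chr7:111081533-111081559, minus strand: caagccgccaaaGTGgagagtgcgatt
Eif4g3, chr4:138082947-138082973, plus strand: gcccctcagacaATGaactcacaacct
Eif4g2, upstream ATG in the 5′ UTR, chr7:111082970-111082996, minus strand: agccggagctctATGgaggtggcggcg
The reading frame of Eif4g2 opened with GTG, and its first in-frame ATG was codon 207. The upstream ATG of Eif4g2 was the only one in its 5′ UTR of 332 nt. It lay 286 nt before the GTG, out of frame with it, and its reading frame of 48 nt to the stop codon ended within the 5′ UTR. The 5′ UTR of Eif4g1 held 4 upstream ATGs in 385 nt and that of Eif4g3 held 7 in 1040 nt.

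The longest annotated transcript of each gene was used. For Eif4g1 (ENSMUST00000115460.7) the coding sequence (CDS) spanned chr16:20673902-20692431 in 32 segments with 4803 nt. For Eif4g2 (ENSMUST00000162415.8) it spanned chr7:111072692-111081547 in 21 segments with 2721 nt, and for Eif4g3 (ENSMUST00000084215.11) chr4:138082959-138206154 in 30 segments with 4740 nt. A library held 1268 to 12700 CDS counts of Eif4g1, 464 to 7320 of Eif4g2 and 581 to 5592 of Eif4g3, out of 2047169 to 14636018 CDS counts in all. Coding segment 3 of Eif4g1, ggaggattcaggtctctgcag at chr16:20674786-20674806, was at 0 in every library. An annotated transcript that differs by these 21 nt (31 segments, 4782 nt) had the same total of 173637 CDS counts, and the cause of the 0 was not tested. Libraries of the depolarized TurboID-PSD95 group with number 2 stood apart from the rest. Over all genes, 18.7% of the 5′ UTR and CDS counts lay in 5′ UTRs in that pulldown, against 5.31% and 10.2% in the other pulldowns of its group.

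Levels are given as CDS counts divided by the library's CDS total and scaled to CPM, and between genes only as CPM per kb of CDS. Among all 38 libraries Eif4g1 lay between 94.1 and 221 CPM per kb, Eif4g2 between 75.3 and 298, and Eif4g3 between 47.6 and 103. The order of the 14 groups differed between the members. Eif4g2 was highest in depolarized Pan-TurboID inputs (233 ± 65.3 CPM per kb, SD, n = 3), and its last places were the resting (86.4 ± 15.7, n = 2) and the depolarized knockdown pulldowns (85.8 ± 8.01, n = 2), which overlapped each other. Eif4g1 was highest in resting TurboID-PSD95 inputs (195 ± 22.9 CPM per kb, n = 3), and Eif4g3 was highest in the same group (92.9 ± 9.07, n = 3). The last place of both was the DHPG pulldowns, at 105 ± 10.6 for Eif4g1 and 51.3 ± 3.56 for Eif4g3 (n = 3). Most neighbours in these orders overlapped in their libraries. Among the exceptions were the resting knockdown inputs for Eif4g2, which overlapped neither the group above them nor the one below. For Eif4g1 the depolarized knockdown inputs lay above the DHPG inputs. For Eif4g3 the resting knockdown pulldowns lay below the resting TurboID-PSD95 pulldowns, the resting knockdown inputs below the DHPG inputs, and the depolarized knockdown pulldowns above the DHPG pulldowns. The gap to the DHPG inputs was small, from 59.8 to 60.15 CPM per kb. These orders were sorted on the same values, in groups of 2 or 3 libraries. In the pair of resting pulldowns 26.1% of genes lay lower without overlap, and for the other gaps this was not counted.

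**Figure D1:**
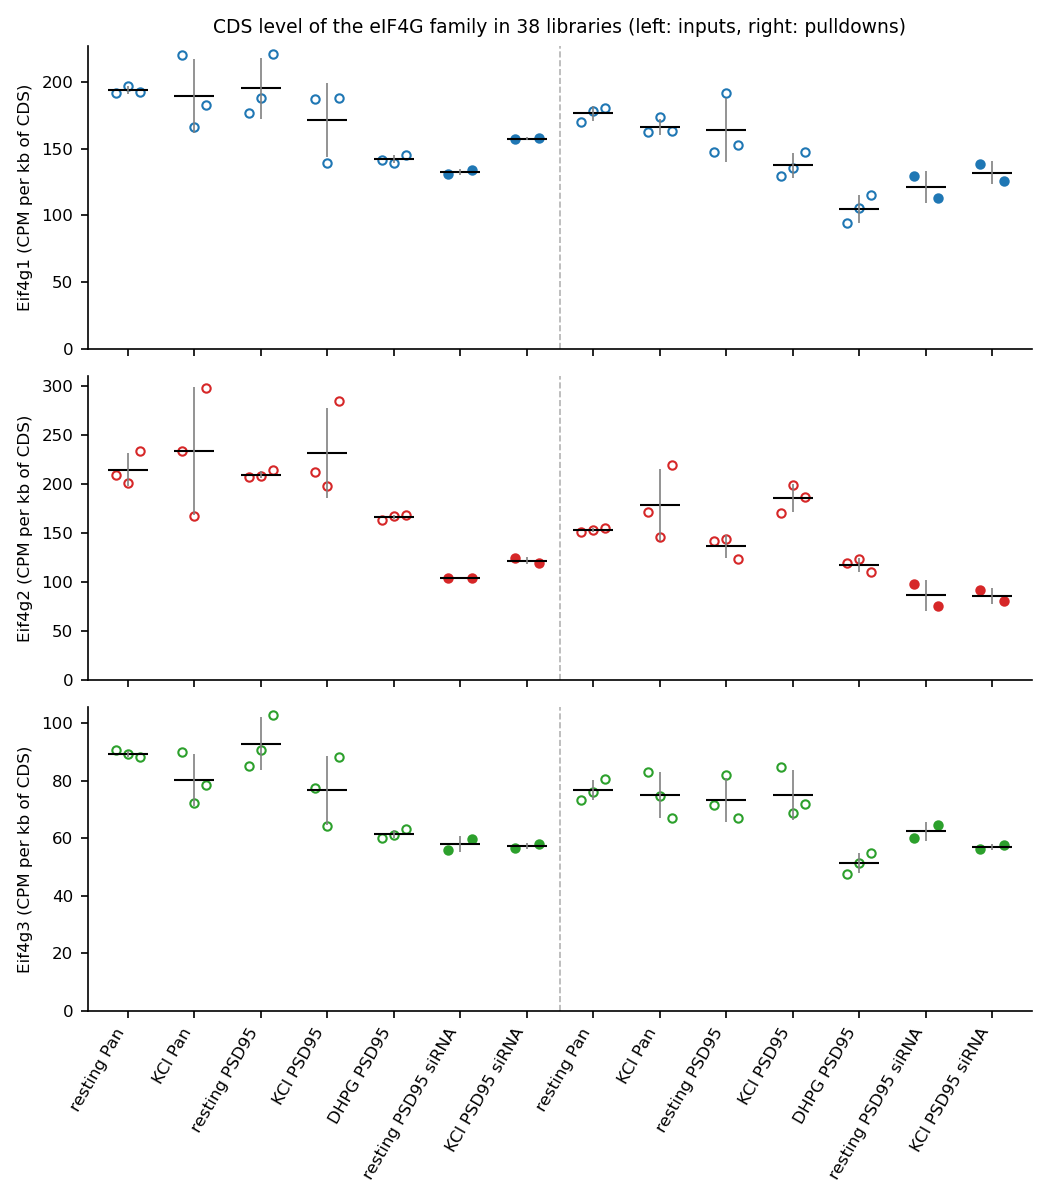
Level of each member in every library, as CPM per kb of CDS on the vertical axis, for 7 groups of inputs on the left and 7 groups of pulldowns on the right. Each circle is a library, filled for siRNA against eIF4G2, with the group mean as a black line and the SD in grey. The filled circles of Eif4g2 lie lowest among the inputs and lowest among the pulldowns.

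The knocked-down gene was lower in every matched pair of groups, and both other members were lower on the mean of the pairs. Without siRNA, the resting TurboID-PSD95 inputs held 562, 566 and 582 CPM of Eif4g2, and with siRNA both held 284. In depolarized inputs the values were 577, 539 and 773 CPM without and 338 and 324 with siRNA. In resting pulldowns they were 387, 390 and 335 CPM without and 265 and 205 with siRNA, and in depolarized pulldowns 464, 542 and 509 against 249 and 218. The targeted gene was lower in every knockdown library than in every matched untreated library. Over all genes tested, 26.6%, 22.7%, 26.1% and 21.6% lay lower without overlap in the same 4 pairs. Footprints of Eif4g2 remained in every knockdown library.

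Eif4g3, the close relative of Eif4g1, also lay lower in all 4 pairs without overlap. It had 403, 430 and 488 CPM in resting inputs against 265 and 283 with siRNA, and 367, 304 and 418 in depolarized inputs against 268 and 275. Its resting pulldowns had 338, 388 and 317 CPM against 285 and 306, and its depolarized pulldowns 402, 325 and 340 against 266 and 273. The groups lay furthest apart in resting inputs and closest in resting pulldowns. Of 13180 genes tested, 5.88% lay lower without overlap in all 4 pairs, and the members that did were Eif4g2 and Eif4g3.

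Eif4g1, the main scaffold, separated at rest only. Its resting inputs had 849, 902 and 1060 CPM against 627 and 642 with siRNA, and its resting pulldowns 710, 919 and 732 against 623 and 541. Its depolarized inputs had 898, 668 and 902 CPM against 754 and 759, and its depolarized pulldowns 621, 651 and 709 against 664 and 606. Both depolarized knockdown inputs lay within the untreated range, as did 1 of the 2 pulldowns, the other being the lowest. Of all genes tested, 13.6% lay lower without overlap in both resting pairs.

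In the mean over the 4 pairs all 3 members passed edgeR's quasi-likelihood test at an FDR of 0.05, in a comparison that called 37.9% of all genes tested, with 21.1% of all genes lower and 16.9% higher. Eif4g2 fell to 0.542 of its level without siRNA (log2 fold change -0.88, SE 0.0951, edgeR adjusted p = 2.0e-07), and its p ranked 130 among the 13180 genes tested. Eif4g3 fell to 0.760 (-0.40, SE 0.0970, edgeR adjusted p = 0.00253) and Eif4g1 to 0.838 (-0.25, SE 0.0975, edgeR adjusted p = 0.0425). These fits, those of single regions of the transcript included, treat the input and the pulldown of a culture as independent. With the culture as a random block in limma voom, an analysis added after the data were seen, Eif4g2 (-0.88, SE 0.104, limma adjusted p = 3.13e-07) and Eif4g3 (-0.38, SE 0.106, 0.00700) passed and Eif4g1 did not (-0.24, SE 0.103, 0.0800), where 30.7% of genes were called. Without that block the limma adjusted p of Eif4g1 was 0.0418. With a background this high, being called says little about Eif4g1 and Eif4g3 in particular. With the trend over CDS length removed, the changes were -1.02 for Eif4g2, -0.65 for Eif4g3 and -0.52 for Eif4g1, and all 3 passed (edgeR adjusted p up to 1.43e-04). The alternatives that kept all replicates, that one included, called 4050 to 5483 genes. The call of Eif4g1 was lost with size factors of the RLE kind (adjusted p = 0.0566) and without the filter on low counts (0.0868). Leaving out single replicates gave log2 fold changes of -0.32 to -0.195 for Eif4g1 with adjusted p from 0.0157 to 0.341, and of -0.45 to -0.35 for Eif4g3 with adjusted p from 6.16e-04 to 0.100, and 2 and 5 of the 8 such fits passed. The call of Eif4g1 was lost without knockdown replicate 1 (adjusted p = 0.1799), knockdown replicate 2 (0.341) or untreated replicate 3 (0.197), and that of Eif4g3 without knockdown replicate 1 (0.100) or 2 (0.0580). Eif4g2 passed in all 8, at -0.995 to -0.803.

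Tested pair by pair, Eif4g2 passed in all 4 pairs and neither other member passed in any. The log2 fold changes of Eif4g2 were -0.98 (SE 0.190) in resting inputs, -0.90 (0.190) in depolarized inputs, -0.60 (0.189) in resting pulldowns and -1.05 (0.192) in depolarized pulldowns. The edgeR adjusted p were 0.00376, 0.00643, 0.0452 and 8.32e-04 in that order. These comparisons called 3.89%, 5.3%, 9.14% and 18.9% of all genes, with 2.0%, 2.12%, 4.95% and 10.9% lower. The directions held without each replicate number, but the calls did not. Adjusted p were up to 0.282, 0.246, 0.697 and 0.138, with 1, 0, 0 and 2 of 3 fits passing. For Eif4g3 the largest of the 4 changes was in resting inputs, at -0.66 (95% confidence interval -1.06 to -0.26, edgeR adjusted p = 0.0545), a value that passed in DESeq2's Wald test (-0.66, adjusted p = 0.0110). Its changes in depolarized inputs, resting pulldowns and depolarized pulldowns were -0.39 (-0.79 to 0.01), -0.19 (-0.59 to 0.21) and -0.34 (-0.74 to 0.06). For Eif4g1 the changes in the same order of 4 pairs were -0.54 (-0.95 to -0.14), -0.09 (-0.49 to 0.31), -0.39 (-0.79 to 0.015) and 0.01 (-0.39 to 0.41). Over these 8 tests of Eif4g1 and Eif4g3, 2 had an unadjusted edgeR p under 0.05, both in resting inputs.

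**Figure D2:**
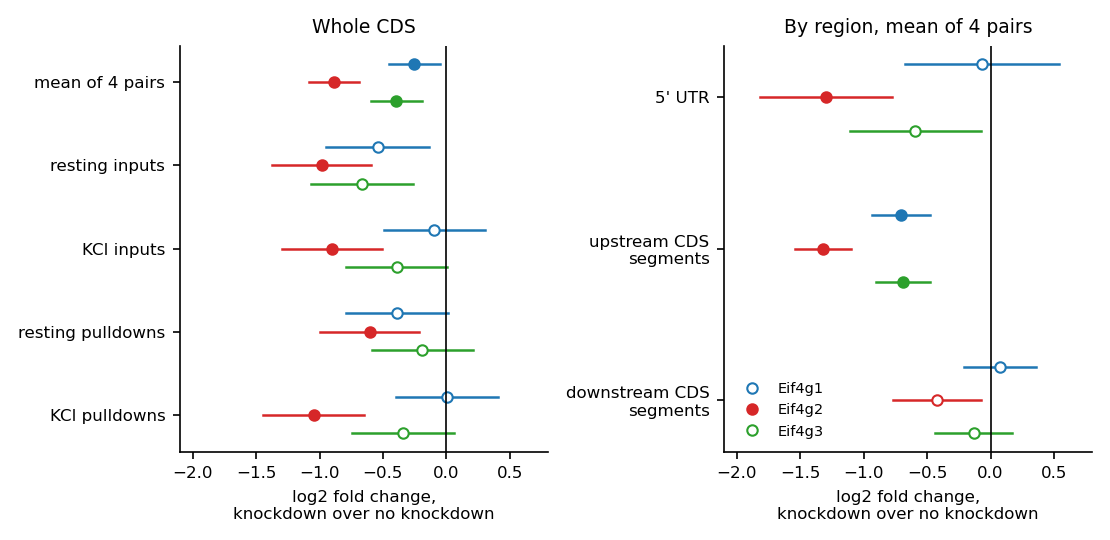
Log2 fold change of each member, knockdown over no knockdown, with 95% confidence intervals, for the whole CDS in each pair of groups on the left and for 3 regions of the transcript in the mean of the pairs on the right. Filled circles passed an FDR of 0.05 in edgeR's test. Eif4g2 lies furthest left in every line, at -0.88 for the mean of the pairs and -1.32 for the upstream segments of the CDS.

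The siRNA response did not differ between rest and KCl by the test of that difference. The KCl response with knockdown minus that without was 0.45 (95% confidence interval -0.12 to 1.01) for Eif4g1, 0.08 (-0.46 to 0.62) for Eif4g2 and 0.27 (-0.29 to 0.83) for Eif4g3 in inputs. In pulldowns it was 0.40 (-0.17 to 0.96), -0.44 (-0.98 to 0.10) and -0.15 (-0.71 to 0.41) in the same order. None passed in edgeR or DESeq2, none had an unadjusted edgeR p under 0.05, and over all genes edgeR called 0.00759% in inputs and 0.448% in pulldowns.

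Set against the DHPG libraries in place of the untreated ones, Eif4g2 was lower in both fractions, while the other members were lower in inputs and did not pass in pulldowns. Resting knockdown inputs against DHPG inputs gave -0.78 for Eif4g2 (edgeR adjusted p = 6.39e-08), -0.22 for Eif4g1 (0.0240) and -0.20 for Eif4g3 (0.0358), where 40.3% of 12969 genes were called. Resting knockdown pulldowns against DHPG pulldowns gave -0.58 for Eif4g2 (edgeR adjusted p = 5.62e-06), with 0.06 for Eif4g1 (0.568) and 0.12 for Eif4g3 (0.185), where 47.4% were called. The sign of Eif4g1 and Eif4g3 in pulldowns thus depended on which experiment stood for the untreated state. DHPG treatment is part of that comparator, and its part was not tested.

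Shares of the family compare the members within a library, so a scaling that acts on all 3 alike drops out. Of the summed CPM per kb of the family, Eif4g2 made up 45.2% ± 4.11 (SD, n = 6) in untreated TurboID-PSD95 inputs and 35.8% ± 0.737 (n = 4) in knockdown inputs. In pulldowns it made up 41.6% ± 5.93 (n = 6) and 31.5% ± 1.86 (n = 4). The differences of -9.42 and -10.0 percentage points each had p = 0.01 in a two-sided exact permutation test that kept rest and KCl apart, the smallest p that its 100 arrangements allow, and 0.015 after Benjamini-Hochberg adjustment over 6 tests. Since the shares sum to 100%, the sum of the other shares had to gain what Eif4g2 lost. Either of them alone could still have fallen. The 3 tests within a fraction are therefore not independent, and a gain in share does not show a rise in level. How often such differences arise in other sets of 3 genes was not tested. The share of Eif4g1 was higher by 8.40 points in inputs (exact permutation adjusted p = 0.015) and 7.33 in pulldowns (0.048), and that of Eif4g3 by 1.02 (0.015) and 2.71 (0.09). Leaving out a replicate number left too few arrangements to pass and kept all 6 directions, while the gain of Eif4g3 in pulldowns ran from 0.525 to 5.24 points.

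**Figure D3:**
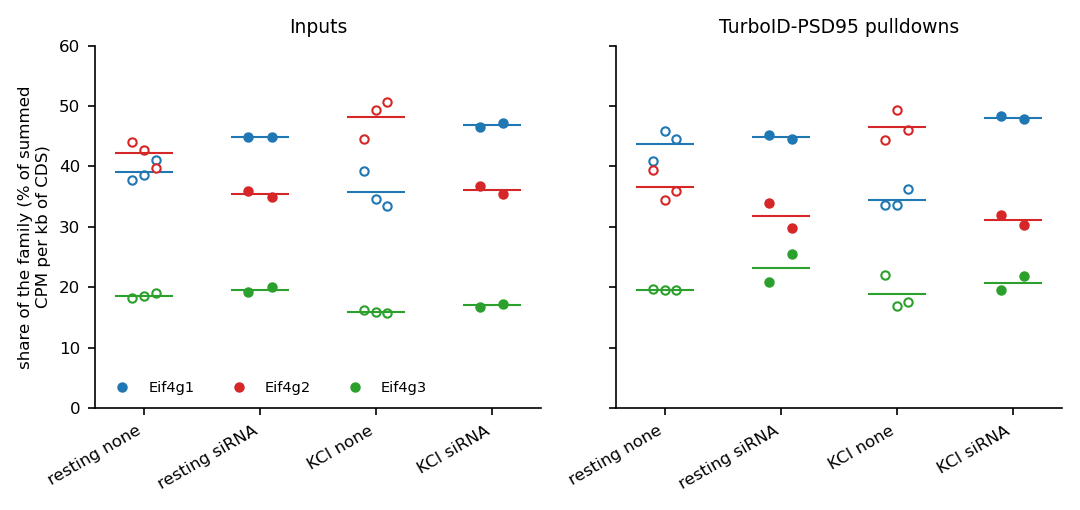
Share of each member in the summed CPM per kb of CDS of the family, in percent, for inputs on the left and TurboID-PSD95 pulldowns on the right, by condition without siRNA (open circles) and with siRNA against eIF4G2 (filled circles). Each circle is a library and each line a group mean. The red share of Eif4g2 is lower in all 4 siRNA groups, with means of 35.8% in inputs and 31.5% in pulldowns.

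Other features moved with the knockdown groups. The summed level of 8 microglia markers was 13.2 to 25.7 CPM in knockdown inputs against 1.28 to 5.74 in untreated inputs, and 10.3 to 19.7 against 0 to 4.40 in pulldowns. Of the 4 microglia markers that could be tested in the mean of the pairs, 3 were higher and none lower, while Cx3cr1 and C1qb were at 0 in all untreated TurboID-PSD95 inputs. Of 10 neuron markers 7 were lower and 1 higher, with Slc17a7, the vesicular glutamate transporter of cortical excitatory neurons, at a log2 fold change of -2.53 (SE 0.149, edgeR adjusted p = 2.75e-11). The summed level of the neuron list was 7289 to 9368 CPM in knockdown inputs against 7410 to 9658 in untreated inputs, and 5543 to 7270 against 7025 to 8644 in pulldowns. Of 7 tested astrocyte markers 2 were higher and 1 lower, and of 7 tested oligodendrocyte markers 2 were higher and 2 lower. Of 4 tested markers of endothelial cells and fibroblasts none was higher and 2 were lower, with a median log2 fold change of -2.01. Their summed level was 156 to 281 CPM in knockdown inputs against 106 to 419 in untreated inputs, and 54.1 to 72.6 against 37.3 to 184 in pulldowns. The part of these differences in the members' values was not tested, and in such bulk libraries fewer cells of a type and fewer footprints per cell cannot be told apart.

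The fall was not even along the coding sequence. Segments were put into an upstream or a downstream set by whether the middle of the segment lay before or after the middle of the CDS. The upstream set had 2484 nt in Eif4g1, 1410 in Eif4g2 and 2439 in Eif4g3, and this division was chosen after the counts of single segments had been seen. In the mean of the pairs, all 3 members fell in their upstream segments, by -0.71 for Eif4g1 (SE 0.111, edgeR adjusted p = 3.33e-05), -1.32 for Eif4g2 (SE 0.108, 2.71e-09) and -0.69 for Eif4g3 (SE 0.105, 2.37e-05). In their downstream segments none passed. There the changes were 0.08 for Eif4g1 (95% confidence interval -0.21 to 0.36), -0.42 for Eif4g2 (-0.77 to -0.07, edgeR adjusted p = 0.0589) and -0.13 for Eif4g3 (-0.43 to 0.17), with an unadjusted p under 0.05 for Eif4g2 alone. The same division over all genes had median changes of -0.231 upstream and 0.136 downstream, and called 31.2% and 32.0% of the genes. The direction of this split was therefore not particular to the family.

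Eif4g2 showed a step within its CDS in pulldowns, at a place that was read off the ratios themselves. From segment 1 to segment 14, which ends the step at chr7:111075587-111075712, the knockdown pulldowns lay below the untreated ones in every segment, with log2 ratios of -3.01 to -1.09. From segment 15, at chr7:111075337-111075441, to segment 21 the ratios were -0.34 to 0.26. Inputs had no such step, and 20 of the 21 segments lay below 0, from -1.57 to -0.24, with the last one at 0.02. In Eif4g1 all 14 upstream segments with counts lay below 0 in inputs and in pulldowns, while the 17 downstream ones were divided, 8 below and 9 above, in both. In Eif4g3 the upstream segments lay below 0 in 13 of 13 in inputs and 12 of 13 in pulldowns, and the downstream ones in 12 and 9 of 17. These ratios compare CPM averaged within each group and then over groups, and they have no test. The ratio of pulldown over input in Eif4g2 also changed at this place in libraries without siRNA. With DHPG it went from -0.14 in segment 14 to 0.48 in segment 15. With knockdown it went from -0.75 to 0.63, and in untreated TurboID-PSD95 libraries from 0.33 to 0.01. The part of this change in the step was not tested.

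**Figure D4:**
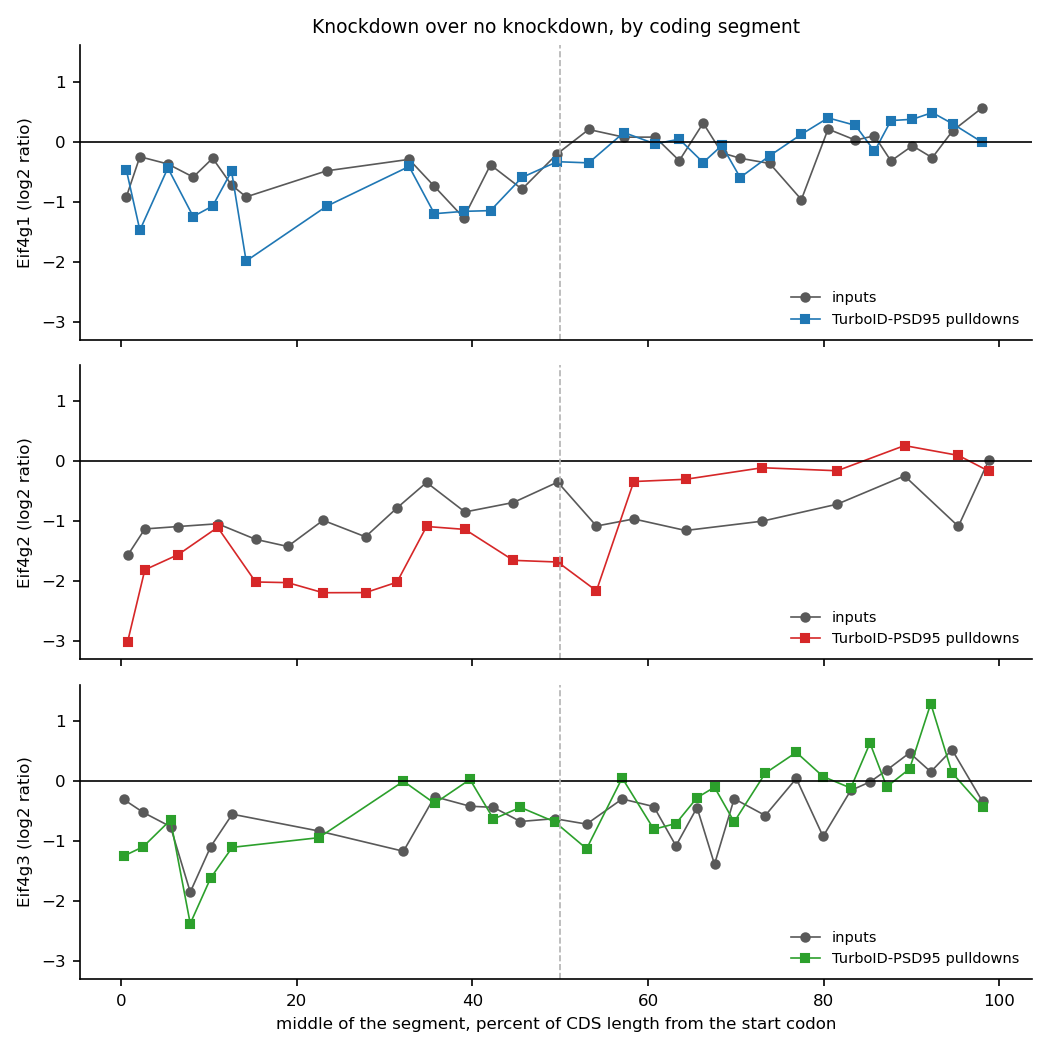
Log2 ratio of scaled counts, knockdown over no knockdown, for each coding segment of the 3 members, against the middle of the segment in percent of CDS length from the start codon. Grey circles are inputs and coloured squares TurboID-PSD95 pulldowns, and the dashed line divides upstream from downstream segments. In Eif4g2 the pulldown ratio goes from -2.16 in segment 14 to -0.34 in segment 15, while the inputs lie below 0 in all segments but the last.

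The downstream share of a gene's CDS counts gives the same information per library. For Eif4g2 it was 39.4%, 41.4% and 45.2% in resting untreated pulldowns and 46.6%, 23.0% and 37.6% in depolarized ones, and 66.8%, 59.2%, 66.7% and 65.5% in the 4 knockdown pulldowns. The knockdown libraries lay above all untreated ones, and so they did in the sum over all genes, given further down. How many single genes separated in this way was not counted. For Eif4g1 the untreated pulldowns ranged from 44.2% to 64.7% and the knockdown pulldowns from 72.7% to 76.9%, and for Eif4g3 from 41.9% to 60.6% and from 66.4% to 67.9%. The differences of 25.7 points for Eif4g2, 15.9 for Eif4g1 and 12.6 for Eif4g3 had exact permutation p of 0.01, 0.01 and 0.02, and 0.02, 0.02 and 0.03 after adjustment over 6 tests. Since the sum over all genes separated as well, these p do not set the members apart from other genes.

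In inputs the differences in downstream share were 8.82 points for Eif4g1 (exact permutation adjusted p = 0.02), 3.62 for Eif4g2 (0.35) and 6.0 for Eif4g3 (0.06). The DHPG pulldowns, which had no siRNA, held values in the range of the knockdown pulldowns or near it. They had 69.6%, 67.0% and 66.9% for Eif4g2, 75.1%, 74.8% and 73.7% for Eif4g1, and 68.0%, 69.2% and 68.3% for Eif4g3. Over all genes, the downstream share was 64.1% to 65.8% in knockdown pulldowns, 67.6% to 68.5% in DHPG pulldowns and 45.6% to 63.1% in untreated TurboID-PSD95 pulldowns. The shift downstream in pulldowns was thus shared by DHPG libraries and by the sum of all genes, and its part in the members' knockdown values was not tested.

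The same direction separated each pulldown from its own input. The downstream share was higher in the pulldown in 12 of 12 pairs of the KCl experiment, 3 of 3 of the DHPG experiment and 4 of 4 of the knockdown experiment, for each of the 3 members. The median gain of Eif4g2 was 16.3 points in the KCl experiment, 42.1 with DHPG and 35.6 with knockdown. For Eif4g1 these medians were 18.9, 29.1 and 29.5 points, and for Eif4g3 19.3, 26.9 and 28.4. Of 9955 genes with counts for this share in all libraries, 28.4% were higher in the pulldown in all 19 pairs. The gain of Eif4g2 was larger in every pair of the DHPG and knockdown experiments (42.0 to 44.7 and 33.5 to 41.4 points) than in every pair of the KCl experiment (5.996 to 24.8), as it was for 0.894% of the same genes. Its upstream CPM was lower in the pulldown by a median of 185 in the KCl experiment, 235 with DHPG and 137 with knockdown. These differences in CPM depend on the level in the inputs, which was lower with the knockdown. As log2 ratios of pulldown over input, the medians over its upstream segments were -0.684 in untreated TurboID-PSD95 libraries, -1.635 with DHPG and -1.417 with knockdown.

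Footprints in the 5′ UTR set Eif4g2 apart from the other members. Summed over all libraries, its 5′ UTR held 3.32 times as many counts per nt as its CDS, above 88.3% of 10606 genes, whose median was 1.28. This ratio was 0.849 in Eif4g3 and 0.340 in Eif4g1. It depended on the annotated 5′ UTR. Over the annotated transcripts with the same ends of the CDS it was 2.83 and 3.32 in the 2 of Eif4g2, 0.849 to 1.53 in the 3 of Eif4g3 and 0.340 to 1.28 in the 5 of Eif4g1. Of the 5′ UTR counts of Eif4g2, 39454 lay in the first segment of 246 nt, at chr7:111082785-111083030, and 2646 in the second of 86 nt next to the GTG, at chr7:111081548-111081633. The first segment is the one with the upstream ATG printed above, and its 160 counts per nt were above those of every coding segment of the gene, of which segment 3 had the most, 135. Each footprint was placed by its 5′ end with no offset, and a ribosome that sits on one of the first codons is therefore counted in the 5′ UTR. In Eif4g2 the 5′ UTR segment next to the first codons is the second one, which had 30.8 counts per nt.

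The 5′ UTR share, the percent of a gene's 5′ UTR and CDS counts that lay in the 5′ UTR, ranged from 12.3% to 44.8% for Eif4g2, from 4.94% to 25.7% for Eif4g3 and from 0.156% to 6.93% for Eif4g1. It was lower in the pulldown than in its own input in all 19 pairs for each member, which also held for 31.1% of 10823 genes. In resting TurboID-PSD95 inputs Eif4g2 had 27.9%, 35.2% and 25.1%, and in the pulldowns of the same cultures 15.6%, 25.3% and 16.1%. In resting knockdown inputs it had 31.1% and 30.4%, and in the pulldowns 13.4% and 14.1%. At rest, the knockdown values thus lay within the untreated range in inputs and below it in pulldowns. In depolarized pulldowns the groups overlapped, with 13.76% and 14.07% with siRNA against 13.99%, 35.48% and 22.32% without. The knockdown difference in this share was not tested. How many genes lay lower without overlap in resting pulldowns was not counted.

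With KCl the 5′ UTR share was higher on average in all 3 members, and none passed. Over all genes, this share was 16.6% to 22.5% in resting and 16.9% to 27.6% in depolarized inputs. In pulldowns it was 5.71% to 10.3% and 5.13% to 18.7% in the same order. In inputs the mean difference, depolarized minus resting, was 1.19 points for Eif4g1, 5.18 for Eif4g2 and 4.33 for Eif4g3, with exact permutation p of 0.0736, 0.160 and 0.0714 over 6 against 6 libraries, and 0.221, 0.320 and 0.221 after adjustment over 6 tests. In pulldowns the differences were 0.566, 4.94 and 2.22 points, with adjusted p of 0.645, 0.386 and 0.532 in the same exact permutation test. Leaving out a replicate number gave 0.0331 to 1.31, 2.68 to 9.23 and -0.279 to 6.11 points in pulldowns. Within each bait the differences in inputs were 2.18 points with Pan-TurboID and 8.17 with TurboID-PSD95 for Eif4g2, 2.27 and 6.38 for Eif4g3, and 0.743 and 1.64 for Eif4g1. In pulldowns they were 4.97 and 4.92 for Eif4g2, 0.475 and 3.96 for Eif4g3, and -0.330 and 1.46 for Eif4g1, whose share was thus lower with KCl in Pan-TurboID pulldowns. The second depolarized TurboID-PSD95 culture had the highest 5′ UTR share of Eif4g2 in both fractions, 44.8% and 35.5%.

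**Figure D5:**
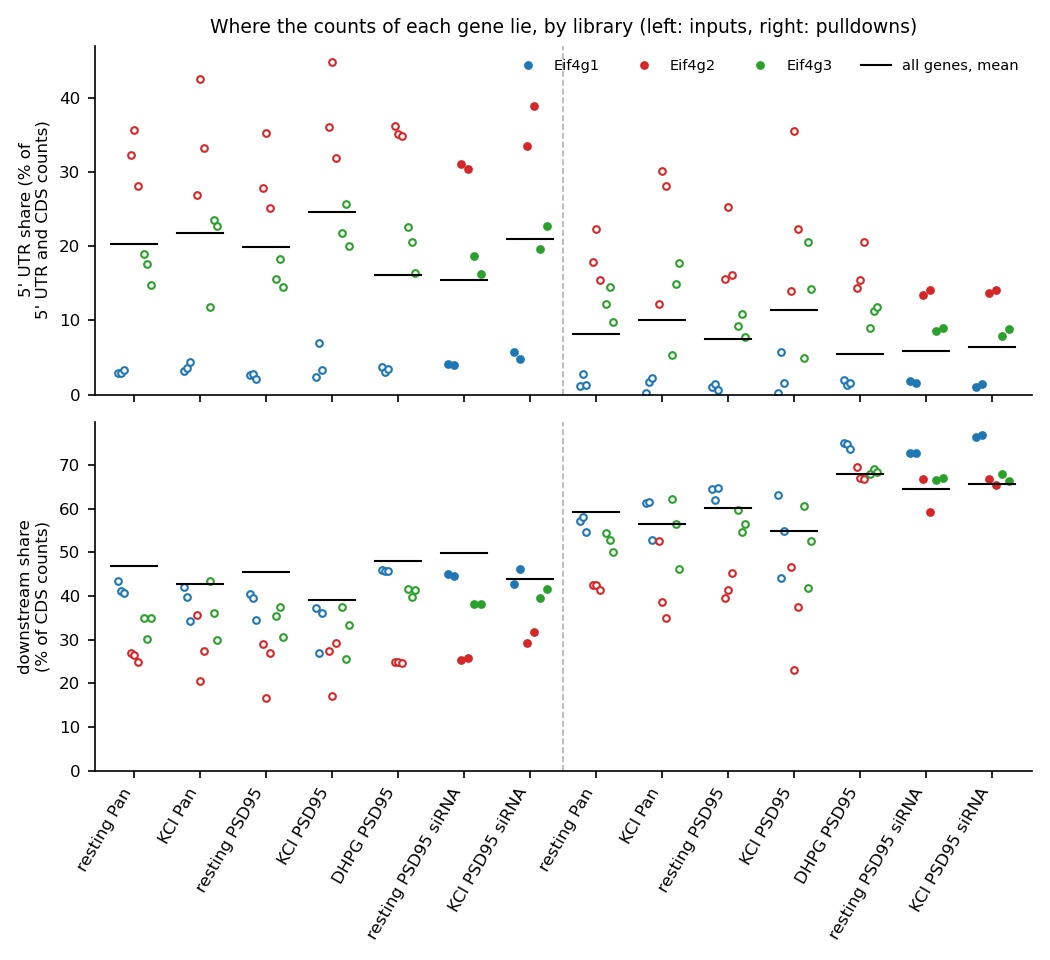
Share of 5′ UTR counts (top) and of downstream CDS counts (bottom), in percent, for each member and library, with inputs on the left and pulldowns on the right. Circles are libraries, filled for siRNA against eIF4G2, and black lines are group means of the same share over all genes. Eif4g2 has the highest mean 5′ UTR share of the members in each group, and the downstream shares of the knockdown and DHPG pulldowns lie together, between 59.2% and 76.9%.

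Counts in the 5′ UTR fell with the knockdown in Eif4g2 (log2 fold change -1.30 in the mean of the pairs, SE 0.263, edgeR adjusted p = 1.5e-04). Eif4g3 (-0.59, 95% confidence interval -1.11 to -0.08, adjusted p = 0.0804) and Eif4g1 (-0.07, -0.68 to 0.54) did not pass, where 23.6% of 10149 genes were called and 22.3% were lower. The median over all these genes was -0.606, so the change of Eif4g3 lay at the median. By pairs, Eif4g2 passed in depolarized pulldowns only (-2.11, SE 0.549, edgeR adjusted p = 0.0208), with -0.91 (-1.93 to 0.11) in resting inputs, -0.96 (-1.98 to 0.06) in depolarized inputs and -1.22 (-2.26 to -0.17) in resting pulldowns. Over all genes, 3.73% were called in depolarized pulldowns, and 0.0985%, 0.0197% and 0.197% in the other comparisons in that order. The untreated depolarized pulldowns held 75.4, 298 and 146 CPM in the 5′ UTR of Eif4g2, against 39.7 and 35.7 with siRNA. The highest of these, number 2, is the library that stood apart over all genes. Scaled by the 5′ UTR counts themselves, the mean change was -0.83 for Eif4g2, which still passed, and -0.16 for Eif4g3 (edgeR adjusted p = 0.397). Without the replicates numbered 2 the mean change of Eif4g2 was -0.93 and no longer passed (adjusted p = 0.109). The 3′ UTRs were nearly empty. A library held at most 14 counts in the 3′ UTR of Eif4g2 (4942 nt), 8 in that of Eif4g3 (2354 nt) and 47 in that of Eif4g1 (450 nt), and only Eif4g1 passed the filter on low counts. Its 3′ UTR counts were higher in DHPG pulldowns than in their inputs (1.45, SE 0.409, edgeR adjusted p = 0.00276, 71.9% of 2100 genes called), and no knockdown comparison of them passed.

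Depolarization with KCl did not change the CDS level of any member by the test. In inputs of both baits the log2 changes were -0.07 for Eif4g1 (95% confidence interval -0.34 to 0.20), 0.16 for Eif4g2 (-0.11 to 0.44) and -0.18 for Eif4g3 (-0.45 to 0.09), where edgeR called 15.3% of 13003 genes. In TurboID-PSD95 pulldowns Eif4g2 had 0.47 (0.07 to 0.86, edgeR adjusted p = 0.146), with 387, 390 and 335 CPM at rest and 464, 542 and 509 after KCl. These libraries did not overlap, as was so in this direction for 8.19% of genes, and this was the only one of 9 tests with an unadjusted p under 0.05. Its change in Pan-TurboID pulldowns was 0.28 (-0.12 to 0.67). Those of Eif4g1 and Eif4g3 in both kinds of pulldown lay between -0.24 and 0.05. With the trend over CDS length removed, Eif4g2 passed there (0.66, edgeR adjusted p = 0.0475). None of the 9 passed with DESeq2, and edgeR called 6.58% of genes in TurboID-PSD95 and 5.03% in Pan-TurboID pulldowns. Within the knockdown, Eif4g1 rose with KCl in inputs (0.27, SE 0.0866, edgeR adjusted p = 0.0307, 19.3% of 12223 genes called). The KCl change of Eif4g2 in those inputs was 0.23 (0.0044 to 0.47, edgeR adjusted p = 0.155) and that of Eif4g3 -0.0019 (-0.20 to 0.20). In knockdown pulldowns the 3 changes lay between -0.13 and 0.13 and none passed (22.2% called).

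Against rest, Eif4g1 and Eif4g3 passed as lower in the DHPG libraries and Eif4g2 did not pass, and the difference between the members was not tested. Inputs gave -0.35 for Eif4g1 (SE 0.127, edgeR adjusted p = 0.0413) and -0.50 for Eif4g3 (SE 0.113, 0.00312), where 32.8% of 12787 genes were called. Pulldowns gave -0.41 (SE 0.128, edgeR adjusted p = 0.0140) and -0.29 (SE 0.113, 0.0465) in the same order, where 47.7% were called. Eif4g2 had -0.23 in inputs (95% confidence interval -0.43 to -0.04, adjusted p = 0.0636) and 0.02 in pulldowns (-0.18 to 0.22). The 445, 454 and 457 CPM of Eif4g2 in DHPG inputs all lay below the resting inputs, as did 31.4% of genes, and it passed there in 3 of 12 alternatives. The calls of the other members were not stable. Over 12 alternatives, that of Eif4g1 in inputs was lost in 6 (adjusted p up to 0.248, without replicate 3) and that of Eif4g3 in pulldowns in 7 (up to 0.410, without replicate 2). That of Eif4g1 in pulldowns was lost without replicate 2 (0.2400), and that of Eif4g3 in inputs was kept in all 12. DHPG and its experiment cannot be told apart, and the resting libraries are those that the knockdown was compared with. Side by side, the DHPG and knockdown changes against resting inputs were -0.35 and -0.54 for Eif4g1, -0.50 and -0.66 for Eif4g3, and -0.23 and -0.98 for Eif4g2.

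Dendritic pulldowns held less of Eif4g2 than inputs did. In resting neurons the TurboID-PSD95 pulldown over the mean of both inputs was -0.61 for Eif4g2 (SE 0.170, edgeR adjusted p = 0.00951, 31.1% of genes called), a call that was lost without replicate 3 (-0.50, adjusted p = 0.170). Eif4g1 had -0.21 (95% confidence interval -0.54 to 0.12) and Eif4g3 -0.28 (-0.61 to 0.05). Within the resting cultures of both baits, the CPM was lower in the pulldown than in its own input in 6 of 6 pairs for Eif4g2 and Eif4g3 and in 5 of 6 for Eif4g1, and 28.7% of genes were lower in all 6. After KCl none of the 3 passed (18.0% called), with -0.38 for Eif4g1 (-0.71 to -0.05, adjusted p = 0.0987), -0.31 for Eif4g2 (-0.65 to 0.04) and -0.05 for Eif4g3 (-0.38 to 0.28). Pan-TurboID pulldowns gave -0.39 for Eif4g2 (SE 0.136, edgeR adjusted p = 0.0287, 34.1% called). This call was lost with only the compared libraries (0.0588) and without each replicate number (0.0517 to 0.201). The test of TurboID-PSD95 beyond Pan-TurboID gave -0.04 for it (-0.44 to 0.35), -0.13 for Eif4g1 (-0.51 to 0.25) and -0.04 for Eif4g3 (-0.42 to 0.34). No member passed in that test in edgeR or DESeq2, none had an unadjusted p under 0.05, and edgeR called 0.00769% of all genes. These fits treat a pulldown and the input of its culture as independent. With each pulldown set against its own input and the culture as a block, an analysis added after the data were seen, Eif4g3 also passed in resting TurboID-PSD95 pulldowns (-0.30, SE 0.120, edgeR adjusted p = 0.0431, 41.9% of genes called). Eif4g2 had -0.59 there (SE 0.117, edgeR adjusted p = 2.36e-04) and -0.38 in Pan-TurboID pulldowns (SE 0.0821, 4.65e-04, 47.6% called). After KCl again none passed (34.6% called), with -0.26 for Eif4g1 (edgeR adjusted p = 0.105), -0.26 for Eif4g2 (0.0878) and 0.02 for Eif4g3 (0.925). With DHPG, pulldowns were lower in Eif4g2 (-0.29, SE 0.0607, edgeR adjusted p = 2.97e-04) and Eif4g1 (-0.23, SE 0.0640, 0.00340), where 79.7% of genes were called. The call of Eif4g1 was lost without replicate 1 (-0.18, adjusted p = 0.0544). Eif4g3 had -0.05 (edgeR adjusted p = 0.471), and passed with CDS totals (-0.26, 0.00126) and with the transcript of most counts (-0.16, 0.0268).

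Within the knockdown, Eif4g2 was lower in depolarized pulldowns than in their inputs (-0.40, SE 0.117, edgeR adjusted p = 0.00682, 48.8% called). At rest it had -0.15 (95% confidence interval -0.38 to 0.08, 45.5% called). Eif4g1 had -0.01 (-0.19 to 0.17) at rest and -0.15 (-0.33 to 0.03) after KCl, and Eif4g3 0.22 (0.02 to 0.42, edgeR adjusted p = 0.0726) and 0.09 (-0.12 to 0.30). The resting value of Eif4g3 passed as higher with RLE size factors (0.25, adjusted p = 0.0372) and with only the compared libraries (0.22, 0.0461). Changes over input also followed CDS length over all genes. With that trend removed, all 3 members were lower and passed in each of the 6 comparisons of pulldown with input, with edgeR adjusted p up to 0.0322. The share of all genes called in these fits was not set beside them, so the calls do not set the members apart from other genes. In TurboID-PSD95 pulldowns Eif4g1 then had -0.65 at rest and -0.79 after KCl, Eif4g2 -0.90 and -0.58, and Eif4g3 -0.71 and -0.48. In Pan-TurboID pulldowns they had -0.53, -0.67 and -0.52, and with DHPG -1.08, -0.84 and -0.90. Within the knockdown Eif4g1 had -0.72 at rest and -0.92 after KCl, Eif4g2 -0.52 and -0.85, and Eif4g3 -0.48 and -0.67.

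In the mean of the pairs, the other genes of cap-dependent initiation were called about as often as all genes were. Of 38 genes in 9 lists, all tested in the mean of the pairs, 8 were higher and 7 lower, beside 16.9% and 21.1% of all genes, and their median change was -0.068, where all genes had -0.048. Subunits of eIF3, which joins eIF4G to the small ribosomal subunit, made up 5 of the 8, and of the 13 subunits none was lower. Eif3l had 0.72 (SE 0.107, edgeR adjusted p = 1.56e-05). The GTPase Eif5b, which joins the ribosomal subunits, had 0.94 (SE 0.156, edgeR adjusted p = 7.82e-05), and the helicase Eif4a1, partner of all 3 members, 0.51 (SE 0.105, 5.47e-04).

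Among those that fell was Eif4h, a cofactor of the helicase (-0.68, SE 0.152, edgeR adjusted p = 0.00128). Mknk1, a kinase that docks on eIF4G1 and phosphorylates eIF4E, had -1.14 (SE 0.277, edgeR adjusted p = 0.00239), and Paip2b, an inhibitor of poly(A)-binding protein, had -0.88 (SE 0.186, 6.81e-04). Of the 6 inhibitors 2 fell and none rose. None of the 3 cap-binding proteins passed, and Eif4e had 0.22 (SE 0.237, adjusted p = 0.481). Tested by pairs, 1 gene of the 38 was higher in resting inputs, 1 in depolarized inputs and 1 in resting pulldowns, with none lower, and in depolarized pulldowns 9 were higher and 3 lower. Over all genes, 1.89%, 3.17%, 4.18% and 7.97% were higher and 2.0%, 2.12%, 4.95% and 10.9% lower in these comparisons.

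By group means over the 14 groups, the genes whose log2 levels followed each member most closely were found among 7668 genes. Pearson's r with Eif4g2 was 0.965 for Pnoc, 0.947 for Sst and 0.944 for Trnp1, of which Pnoc and Sst encode neuropeptide precursors of inhibitory neurons. For Eif4g1 they were Bicd1 (0.899), Wdr44 (0.890) and Pank1 (0.885), and for Eif4g3 Spock3 (0.909), Cntn4 (0.909) and Robo2 (0.907). Between the members r was 0.720 to 0.789. The ranges over the groups differed, with 1.33 on the log2 scale for Eif4g2 and 2.52 for Pnoc. The groups share experiments, and inputs share cultures with pulldowns, so these values are a description.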

How the data were processed

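Ribosome footprints of 38 libraries were used. According to the study's methods, the authors trimmed the reads, removed molecular identifiers, aligned to mm10 with Rsubread and counted with plastid. Per the file headers, 5′ ends of reads of 25 to 100 nt were counted with an offset of 0 in CDS, 5′ UTR and 3′ UTR segments, and the deposited counts are raw whole numbers. Strand use and the handling of multiply aligned reads are not given in the sources used here, so reads shared between paralogs or overlapping genes cannot be told apart.

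Here the longest transcript per gene was kept (22443 genes), and 66750 of 67238 coding transcripts were matched to symbols. Library totals ran from 5906281 to 35643247 counts. Fits used edgeR 4.0.16 under R 4.3.3 (quasi-likelihood F test, TMM, filterByExpr, Benjamini-Hochberg adjustment, FDR 0.05) with 20 libraries for the knockdown, 24 for KCl, 6 and 12 for DHPG and 8 within the knockdown. UTR and partial CDS counts kept the CDS scaling. SE came from the F statistic. Pulldowns share a culture with their inputs. Deviations from group means correlated within these pairs with r of 0.359 to 0.708 (KCl), -0.212 to 0.054 (DHPG) and 0.00992 to 0.0244 (knockdown). The scripts were tested on simulated data. The 3 members are named throughout, with up to 3 pathway genes per direction by smallest p and the 3 genes most like each member. The members, lists and tests were chosen with earlier results of these data known. Alternatives were DESeq2 1.42.0, edgeR's likelihood ratio test, other scalings and filters, the transcript with most counts, removal of the trend with CDS length, a replicate block, replicates left out, DHPG libraries as comparator and, because of these correlations, the culture as a block (edgeR for pulldowns over inputs of the KCl experiment, limma 3.58.1 voom with duplicateCorrelation for the knockdown mean). No replicates agreed within sampling noise, at which chi-square per gene between 2 replicates would be near 1. It was 8.61 to 47.5 in the KCl experiment and 2.81 to 4.65 in the knockdown experiment. In the DHPG experiment it was 1.48 to 1.90 in inputs and 2.83 to 8.88 in pulldowns. Fits of DHPG and knockdown libraries alone use this mostly smaller spread.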

Additional observations from a re-analysis of the deposited data

How the results depend on the processing

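Of the members' values under the alternatives, 729 kept their direction and their side of the threshold, 72 lost and 37 gained significance, 44 changed sign and 3 moved. In the mean of the 4 knockdown pairs, Eif4g1 did not pass with RLE size factors (-0.24, adjusted p = 0.0566), without the filter (-0.24, 0.0868) or with the culture as a random block (-0.24, 0.0800), while with the length trend removed Eif4g1 was at -0.52, Eif4g2 at -1.02 and Eif4g3 at -0.65. In resting inputs Eif4g1 passed with only the compared libraries (-0.55, 0.0151) and against DHPG libraries (-0.22, 0.0240). There Eif4g3 passed with edgeR's likelihood ratio test (-0.66, 0.0425), DESeq2 (-0.66, 0.0110), CDS totals (-0.68, 0.0276), the length trend removed (-0.75, 0.0132), only the compared libraries (-0.67, 0.00616) and DHPG libraries (-0.20, 0.0358). With the length trend removed, Eif4g3 also passed in depolarized inputs (-0.60, 0.0440) and depolarized pulldowns (-0.80, 0.00373), and Eif4g1 in resting pulldowns (-0.66, 0.0290). In resting pulldowns Eif4g2 did not pass with RLE (-0.58, 0.0531) or without the filter (-0.57, 0.104), and against DHPG libraries Eif4g1 was at 0.057 and Eif4g3 at 0.12. In depolarized pulldowns Eif4g2 did not pass with only the compared libraries (-1.04, 0.0774), and Eif4g1 changed sign with CDS totals (-0.0575), the transcript with most counts (-0.0003) and the length trend removed (-0.48). In the 5′ UTR, the UTR's own scaling gave 0.44 for Eif4g1, -0.83 for Eif4g2 and -0.16 for Eif4g3. The causes were not tested.

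The replicate block was fitted within each experiment, and replicate numbers did not pair knockdown with untreated libraries (r of -0.00526 to 0.0790). In the KCl experiment, different cultures with the same number had a median r of 0.0889, and those with different numbers -0.107. In the knockdown experiment these medians were -0.000685 and -0.00494. With the block, Eif4g3 passed in resting inputs (-0.66, 0.0354) and in the 5′ UTR (-0.57, 0.0169), Eif4g2 passed in the downstream segments (-0.40, 0.0275), Eif4g1 in the 5′ UTR was at 0.0504, and Eif4g3 within the knockdown was at 0.0006 for KCl in inputs.

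Other changes of sign were in values that had not passed in the fits reported. With the length trend removed, KCl in inputs gave 0.14 for Eif4g1 and 0.0324 for Eif4g3, KCl in Pan-TurboID pulldowns 0.0948 for Eif4g1, DHPG pulldowns -0.13 for Eif4g2, knockdown pulldowns over inputs -0.48 at rest and -0.67 after KCl for Eif4g3, and KCl within the knockdown 0.10 for Eif4g3 in inputs and 0.0361 for Eif4g2 in pulldowns. CDS totals gave -0.0339 for Eif4g3 in Pan-TurboID pulldowns, -0.21 for Eif4g2 in DHPG pulldowns and -0.0095 for Eif4g3 in depolarized knockdown pulldowns over inputs. The transcript with most counts gave -0.0025 for Eif4g2 with DHPG, and -0.0417 and 0.028 for Eif4g3 in depolarized knockdown pulldowns over inputs and with KCl in knockdown inputs. Within the knockdown, DESeq2 and RLE gave 0.0255 and 0.0246 for Eif4g1 in resting pulldowns over inputs, 0.041 and 0.0413 for Eif4g3 with KCl in inputs, and 0.0124 and 0.011 for Eif4g2 with KCl in pulldowns. With the culture as a block, Eif4g3 in depolarized TurboID-PSD95 pulldowns over inputs was at 0.0189. As a log2 ratio, the KCl difference of the 5′ UTR share of Eif4g1 in pulldowns was -0.27.

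Without single replicates, the mean of the knockdown pairs ran from -0.322 to -0.195 for Eif4g1 and from -0.447 to -0.355 for Eif4g3. Eif4g2 ran from -0.998 to -0.956 in resting inputs, -1.02 to -0.723 in depolarized inputs, -0.784 to -0.343 in resting pulldowns and -1.18 to -0.935 in depolarized pulldowns, and Eif4g1 from -0.081 to 0.0842 in the last. In the 5′ UTR the means ran from -0.354 to 0.556 for Eif4g1 and -1.50 to -0.926 for Eif4g2. The difference in KCl response in inputs ran from -0.0285 to 0.243 for Eif4g2. KCl changes ran from -0.267 to 0.107 for Eif4g1 in inputs, -0.129 to 0.244 for Eif4g3 in TurboID-PSD95 pulldowns, and -0.112 to 0.0556 for Eif4g1 and -0.162 to 0.191 for Eif4g3 in Pan-TurboID pulldowns. Depolarized TurboID-PSD95 pulldowns over inputs ran from -0.0717 to 0.0042 for Eif4g3, and the part beyond Pan-TurboID from -0.0825 to 0.0291 for Eif4g2 and -0.115 to 0.0993 for Eif4g3. DHPG pulldowns ran from -0.0026 to 0.0624 for Eif4g2. The KCl difference in 5′ UTR share ran from 0.0331 to 1.31 points for Eif4g1, 2.68 to 9.23 for Eif4g2 and -0.279 to 6.11 for Eif4g3 in pulldowns, and from 0.582 to 1.80, 3.64 to 7.09 and 3.13 to 6.71 in inputs, and the knockdown difference in downstream share from -0.844 to 6.20 points for Eif4g2 in inputs.

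Genes called in the mean of the pairs numbered 5000, and 1630 to 6033 under the alternatives. By pairs the counts were 513 (2 to 5229) in resting inputs, 698 (9 to 1197) in depolarized inputs, 1204 (107 to 6153) in resting pulldowns and 2486 (87 to 3088) in depolarized pulldowns. With 2 libraries per knockdown group, a fit without 1 of them assumes that the lone library varies like the other groups. The 3′ UTRs of Eif4g2 and Eif4g3 held too few counts to test.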
